A study of Mus musculus with 3 samples.

Results

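The axonemal dynein arm chains described here are 10 of the 27998 genes listed in the matrices, taken by symbol. They comprise 3 heavy chains of the outer dynein arm (Dnah5, Dnah9 and Dnah11), 2 heavy chains of the two-headed inner arm (Dnah2 and Dnah10), 4 heavy chains of the single-headed inner arms (Dnah3, Dnah6, Dnah7a and Dnah12), and the inner-arm light intermediate chain Dnali1. Each symbol matched 1 row, and all 10 genes had UMIs (unique molecular identifiers, which count captured mRNA molecules) in each of 3 libraries.

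Cells came from the subventricular zone, the germinal layer of the lateral ventricle wall, of adult mice (5 animals in the study). All mice carried aSMACreERt2, an inducible Cre driven by the smooth muscle actin promoter, with Rosa26-tdTomato, and the Sox2tm2Hoch allele, which places GFP at Sox2, on a mixed strain background, C57/Bl6(3/4) with 129S1SvlmJ(1/4). One library was made from 1200 sorted tdTomato-positive/GFP-positive cells and 2 from tdTomato-negative/GFP-positive sorts of 1200 and 6000, so cells of every library had passed the Sox2-GFP gate. Smooth muscle actin is also made by mural cells of vessels, and the sources used here give neither the induction regimen nor exact ages. The labels do not say which animals gave which library, so the spread behind each p-value is that between libraries and may be technical.

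Dynein arms are rows of motor complexes along the outer doublet microtubules of motile cilia. Outer arms set mainly the beat frequency and inner arms the waveform, and in the brain motile cilia line the ventricles on multiciliated ependymal cells. Dnah5 occurs along the whole cilium, with Dnah11 in its proximal and Dnah9 in its distal part, in the airway. Loss of DNAH5, DNAH9 or DNAH11 causes human ciliary dyskinesia, and mice without Dnah5 develop hydrocephalus.

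The heavy chains are long, multi-exon genes scattered over the genome (GENCODE M21, GRCm38). The outer-arm genes are Dnah5 at chr15:28203752-28472052 on the plus strand, Dnah9 at chr11:65831282-66168551 on the minus strand and Dnah11 at chr12:117877982-118199043 on the minus strand. The two-headed inner-arm genes are Dnah2 at chr11:69420809-69549110 (minus) and Dnah10 at chr5:124725085-124834308 (plus). The single-headed inner-arm genes are Dnah3 at chr7:119922671-120095280 (minus), Dnah6 at chr6:73017606-73221651 (minus), Dnah7a at chr1:53397006-53706784 (minus) and Dnah12 at chr14:26693274-26891703 (plus). Their longest coding transcripts have 61 (Dnah3) to 86 (Dnah2) exons and 3960 (Dnah12) to 4621 (Dnah5) codons. Dnali1, at chr4:125055338-125065703 (minus), has 6 exons and 258 codons. Dnah7a has copies that share part of its sequence. Of the 50-base words in the last 500 bases of its transcript, 48.8% also occur in Dnah7c and 19.1% in Dnah7b. Its counts are therefore uncertain. Sequence shared with other genes was not computed for the other members. Genes on the opposite strand overlap 7 members: Dnah2 (Dnah2os), Dnali1 (Gnl2), Dnah9 (Gm12296), Dnah11 (Cdca7l), Dnah10 (Gm43777), Dnah3 (Lyrm1 and Gm25217) and Dnah6 (Gm20560); the sources used here do not say whether counting used strand.

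Promoters of these genes are shown because the members were high in the same cells. The 250 bases before the RefSeq start (GRCm38.p6) are printed for the member with most UMIs in ependymal-like cells in each heavy-chain arm group: Dnah5 at chr15:28203516-28203765, Dnah10 at chr5:124724835-124725084 and Dnah12 at chr14:26691304-26691553, all on the plus strand. Capitals mark GTTGCC, a part of the X-box bound by RFX factors, and TGTTTA, the core of forkhead sites, on either strand (GGCAAC and TAAACA). A lone GTTGCC is not a full X-box.
Dnah5: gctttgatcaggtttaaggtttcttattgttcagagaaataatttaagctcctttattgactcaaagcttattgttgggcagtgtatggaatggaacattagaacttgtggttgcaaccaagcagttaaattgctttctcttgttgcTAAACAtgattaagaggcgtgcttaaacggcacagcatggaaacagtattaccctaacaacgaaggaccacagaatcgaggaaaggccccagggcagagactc
Dnah10: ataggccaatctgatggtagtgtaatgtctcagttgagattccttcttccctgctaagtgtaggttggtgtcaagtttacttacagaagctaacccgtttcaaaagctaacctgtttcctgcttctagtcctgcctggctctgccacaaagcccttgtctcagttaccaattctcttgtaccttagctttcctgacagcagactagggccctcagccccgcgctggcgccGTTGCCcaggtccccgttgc
Dnah12: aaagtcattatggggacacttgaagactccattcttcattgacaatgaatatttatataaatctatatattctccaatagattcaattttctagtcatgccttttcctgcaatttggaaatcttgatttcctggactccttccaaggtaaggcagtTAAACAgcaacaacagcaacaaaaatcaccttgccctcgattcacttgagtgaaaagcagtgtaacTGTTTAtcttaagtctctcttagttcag
The RefSeq start used for Dnah12 lies upstream of the GENCODE gene. TGTTTA occurred in 3 of the 9 members with a promoter entry (Dnah5, Dnah11 and Dnah12), against 12.03% of 32851 promoters of the same length. GTTGCC occurred in 2 of 9 (Dnah7a and Dnah10), against 10.4%. No member held both, against 1.04% of all promoters. The Dnah10 match began 20 bases before the start, and the Dnah12 window held 2 forkhead matches, 94 and 28 bases before it. These are letter matches in a short window, not shown to be binding sites.

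The libraries held 314, 259 and 1127 barcodes (tdTomato-positive, tdTomato-negative 1 and tdTomato-negative 2) with 788344 to 3593633 UMIs, and 1629 of 1700 barcodes passed the cell filter. Libraries shared 0, 1 and 2 barcodes in pairs. Mitochondrial UMIs took a median of 8.27% per kept tdTomato-positive cell, against 3.22% and 3.38% in the others. Clustering, from which the members and all other listed cilium genes were left out, gave 1 ependymal-like cluster of 235 cells. All 14 ependymal markers had UMIs there, as they also had in some other classes. Their summed level was 18357 CPM (UMIs of the gene per 1000000 UMIs of the summed cells). The highest level of these markers in another class was 1486 CPM, in endothelial-like cells. In the ependymal-like cluster 16 astrocyte markers summed to 1959 CPM and 15 neuroblast markers to 1481 CPM. The sums were 423 CPM for 10 choroid plexus markers and 264 CPM for 10 mural markers. It held 177 of 252 cells (70.2%) of the tdTomato-positive library, 12 of 256 (4.69%) of tdTomato-negative 1 and 46 of 1121 (4.10%) of tdTomato-negative 2. Their median depth was 3284, 4069 and 4255.5 UMIs per cell.

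All 10 chains were detected in the ependymal-like cells of all 3 libraries, and together they took a similar share of the UMIs in each. The summed members reached 1824 CPM among tdTomato-positive cells, 1891 CPM in tdTomato-negative 1 and 1655 CPM in tdTomato-negative 2, or 1790 ± 121 CPM (SD, n = 3). These sums rest on 1073, 85 and 293 UMIs. The plot of member levels in ependymal-like cells shows how the chains divide this total.

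**Figure D1:**
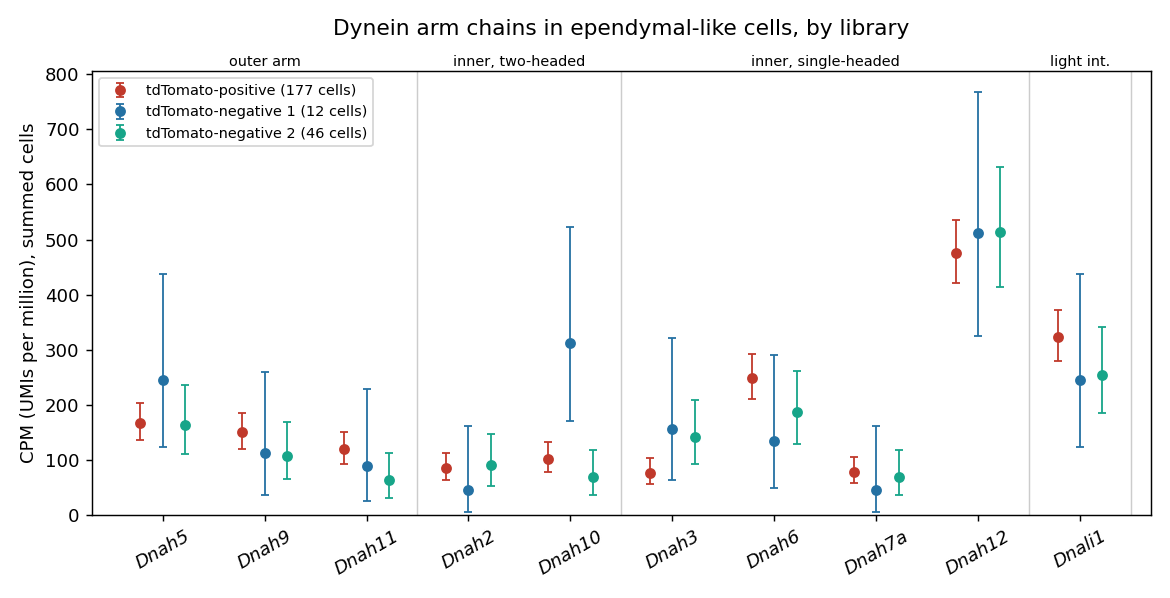
Level of each dynein arm chain (CPM of the summed ependymal-like cells, linear axis) in the 3 libraries, grouped by arm type; bars are exact 95% Poisson intervals and cover counting error only. Dnah12 is the highest heavy chain in all 3 libraries, between 476 and 514 CPM, and Dnah10 is at 311 CPM in tdTomato-negative 1 against 102 and 67.8 CPM in the other libraries.

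Among the outer-arm chains Dnah5 was highest and Dnah11 lowest in every library. Dnah5, the gamma-type heavy chain, had 98, 11 and 29 UMIs in the tdTomato-positive, tdTomato-negative 1 and tdTomato-negative 2 ependymal-like cells, or 167, 245 and 164 CPM. Dnah9, the distal beta-type chain, had 88, 5 and 19 UMIs, or 150, 111 and 107 CPM. Dnah11, the proximal beta-type chain, had 70, 4 and 11 UMIs, or 119, 89.0 and 62.1 CPM. The means were 192 ± 45.9 CPM for Dnah5, 123 ± 23.4 CPM for Dnah9 and 90.0 ± 28.4 CPM for Dnah11 (SD, n = 3), so Dnah9 and Dnah11 were not separated beyond their spread.

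Of the two-headed inner-arm chains, Dnah10 had the largest SD over libraries of all members, whereas Dnah2 did not stand apart. Dnah2 had 50, 2 and 16 UMIs, or 85.0, 44.5 and 90.4 CPM (73.3 ± 25.1 CPM). Dnah10 had 60, 14 and 12 UMIs, or 102, 311 and 67.8 CPM (160 ± 132 CPM, SD, n = 3). The tdTomato-negative 1 library stood apart for Dnah10: its 14 UMIs came from 9 of 12 cells (75.0%, exact binomial interval 42.8% to 94.5%), against 30.5% (23.8% to 37.9%) of the 177 cells and 23.9% (12.6% to 38.8%) of the 46 cells. The Dnah10 level there had an interval of 170 to 523 CPM, above those of the tdTomato-positive library (77.8 to 131 CPM) and tdTomato-negative 2 (35.0 to 118 CPM). This excess rests on 14 UMIs of 12 cells.

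Of the single-headed inner-arm chains, Dnah12 stood apart. It had 280, 23 and 91 UMIs, or 476, 512 and 514 CPM, and had the most UMIs of any member in each library (501 ± 21.3 CPM, SD, n = 3). Dnah6 followed with 146, 6 and 33 UMIs, or 248, 133 and 186 CPM (189 ± 57.4 CPM). Dnah3 had 45, 7 and 25 UMIs, or 76.5, 156 and 141 CPM (124 ± 42.2 CPM): it was the lowest member in the tdTomato-positive library and the fifth in both tdTomato-negative libraries. Dnah7a had 46, 2 and 12 UMIs, or 78.2, 44.5 and 67.8 CPM (63.5 ± 17.3 CPM). Its copies, which are not members, had 39, 3 and 10 UMIs for Dnah7b and 10, 3 and 2 UMIs for Dnah7c in the same cells. Dnali1, the light intermediate chain, had 190, 11 and 45 UMIs, or 323, 245 and 254 CPM (274 ± 42.7 CPM).

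Levels of different genes were compared per 1000 codons, although a 3′ library counts transcripts at their end. On that scale the heavy chains ran from Dnah12 at 126 CPM per 1000 codons through Dnah6 at 45.7, Dnah5 at 41.5, Dnah10 at 34.9, Dnah3 at 30.5, Dnah9 at 27.4, Dnah11 at 20.1 and Dnah2 at 16.4 to Dnah7a at 15.8. Only Dnah12 was clear of its neighbour by more than the spread over libraries.

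By arm type, transcripts of the member inner-arm heavy chains outnumbered those of the outer-arm chains in all 3 libraries. The outer set held 3 genes, however, and the inner sets 2 and 4, so these shares are not levels per gene. Of the 870 pooled inner-arm UMIs, 394 were of Dnah12. Heavy chains that are not members were left out of the totals. Outer-arm chains made up 29.0% (exact binomial 95% interval 26.0% to 32.1%) of the 883 heavy-chain UMIs in tdTomato-positive ependymal-like cells, 27.0% (17.4% to 38.6%) of 74 in tdTomato-negative 1 and 23.8% (18.6% to 29.6%) of 248 in tdTomato-negative 2. The 3 intervals overlap, and the pooled share was 27.8% (25.3% to 30.4%). Two-headed inner-arm chains made up 12.5%, 21.6% and 11.3%, and single-headed ones 58.6%, 51.4% and 64.9%, in the same order. Dnah12 alone accounted for 31.7%, 31.1% and 36.7%.

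**Figure D2:**
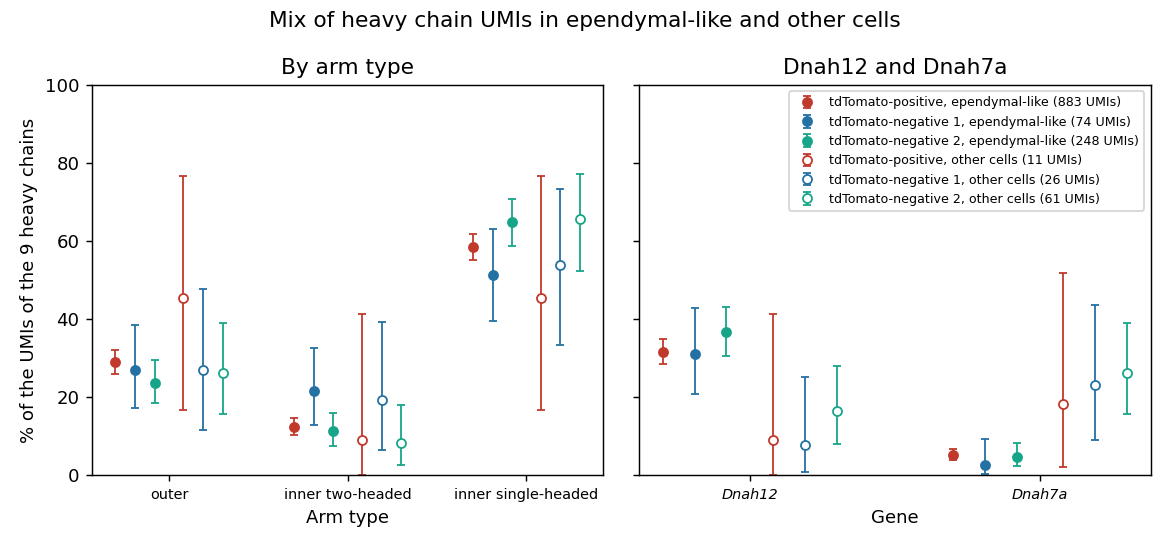
Share of the UMIs of the 9 member heavy chains (percent, linear axis) by arm type (left) and for Dnah12 and Dnah7a (right), with filled points for ependymal-like cells and open points for all other kept cells of each library; bars are exact 95% binomial intervals. The intervals of each arm type overlap between both sets of cells in every library. Dnah7a takes 5.21%, 2.70% and 4.84% in ependymal-like cells and 18.2%, 23.1% and 26.2% in other cells. Dnah12 takes 31.7%, 31.1% and 36.7% in ependymal-like cells and 9.09%, 7.69% and 16.4% in other cells. For both genes the intervals of the 2 sets of cells separate only in tdTomato-negative 2.

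Per cell, most ependymal-like cells showed several members but none showed all 10. The median cell had UMIs of 4 members in each library, and the highest number was 9. Heavy chains of both arms were seen in 162 of 235 cells (68.9%), inner-arm chains alone in 58, outer-arm chains alone in 7 and neither in 8. The 7 cells without any member UMI had a median of 1013 UMIs in all, against 3710.5 for the others, and 6 of them lay among the 78 shallowest cells. Cells were then thinned to a common 1000 UMIs each, and 18 shallower ones dropped. The variance over the mean of each member's counts lay between 0.87 (Dnali1) and 1.18 (Dnah12) over 217 cells. With means of 0.074 to 0.56 UMIs per cell counting error makes up most of this ratio. It therefore says little about whether cells differ, least of all for the lowest members. It was 1.24 for the summed heavy chains and 1.24 for the summed members. The outer-arm and inner-arm sums had a Pearson correlation of 0.11 over these thinned cells, which is weak, and both came from the same thinned libraries.

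Across the cell types, every member was higher in ependymal-like cells than in the remaining 1394 cells. The summed members stood at 1791 CPM (1451 UMIs) in ependymal-like and 26.9 CPM (119 UMIs) in other cells, a ratio of 66.6 (exact interval 55.2 to 80.9, counting error only). This pooled ratio mixes libraries with classes. The tdTomato-positive library gave 177 of the 235 ependymal-like cells but 75 of the 1394 others. The pooled ratio was 65.3 (44.4 to 99.8) for outer-arm, 76.4 (41.5 to 156) for two-headed and 66.2 (50.8 to 87.9) for single-headed inner-arm chains, and these intervals overlap. In the same order they were 11.5, 24.7 and 23.2 within tdTomato-positive. Within tdTomato-negative 1 they were 56.0, 62.7 and 53.2, and within tdTomato-negative 2 71.0, 108 and 77.5. Dnah12 had the highest pooled ratio, 165 (95.6 to 313), and Dnah10 had 93.9 (38.7 to 296). Their order differed between libraries: in tdTomato-negative 2 Dnah10 stood at 231 (34.2 to 9879, with 1 UMI in other cells) and Dnah12 at 175 (91.1 to 378). Dnah5, Dnah9, Dnah11, Dnah2, Dnah3, Dnah6 and Dnali1 lay between 51.5 and 75.3. Dnah7a was lowest in the pool at 13.6 (8.37 to 22.9), an interval below that of every other member. Within libraries it stood at 5.16 (1.35 to 43.9) in tdTomato-positive, 6.53 (0.65 to 36.5) in tdTomato-negative 1 and 14.4 (6.24 to 32.5) in tdTomato-negative 2. In each library that interval overlapped those of other members, so no single library set Dnah7a apart.

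**Figure D3:**
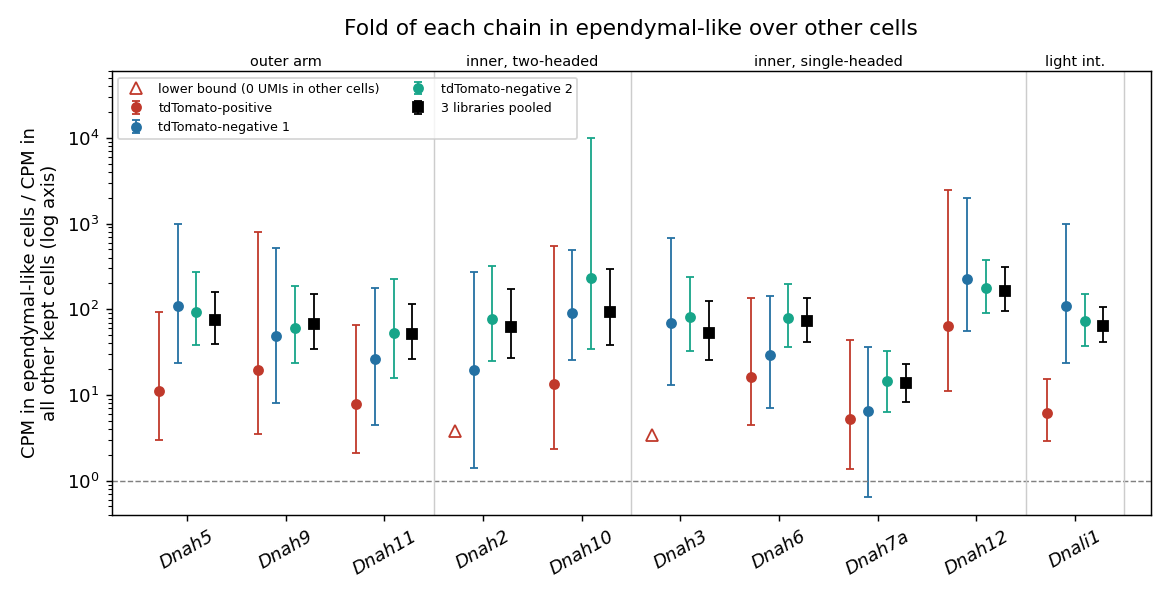
Ratio of each chain's CPM in ependymal-like cells to its CPM in all other kept cells (log axis), for each library and for the 3 pooled. Bars are exact 95% intervals for counting error. Open triangles mark chains with 0 UMIs in other cells and show the ratio against a floor of 3 counts. The exact lower limits of these ratios are smaller. The pooled Dnah7a ratio of 13.6 lies below the other members, which run from 51.5 to 165.

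The ratio differed between libraries with the level in the other cells. Within the tdTomato-positive library the summed members were 13.4-fold (8.43 to 22.7) higher in ependymal-like cells, against 59.5-fold (38.4 to 94.8) in tdTomato-negative 1 and 77.3-fold (59.6 to 101) in tdTomato-negative 2. The other cells of the tdTomato-positive library held 136 CPM of member transcripts, those of the tdTomato-negative libraries 31.8 and 21.4 CPM. This level moved with the ependymal-like share of the library (70.2%, 4.69% and 4.10%); free RNA from ependymal cells was not tested as its source. Dnah2 and Dnah3 had 0 UMIs in the 75 other cells of the tdTomato-positive library. The exact lower limits of their ratios there were 2.93 and 2.63. Against a floor of 3 counts for that library the ratios were 3.74 and 3.37. Of the 1394 other cells, 112 had a member UMI, 7 had UMIs of 2 members and none had 3.

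**Figure D4:**
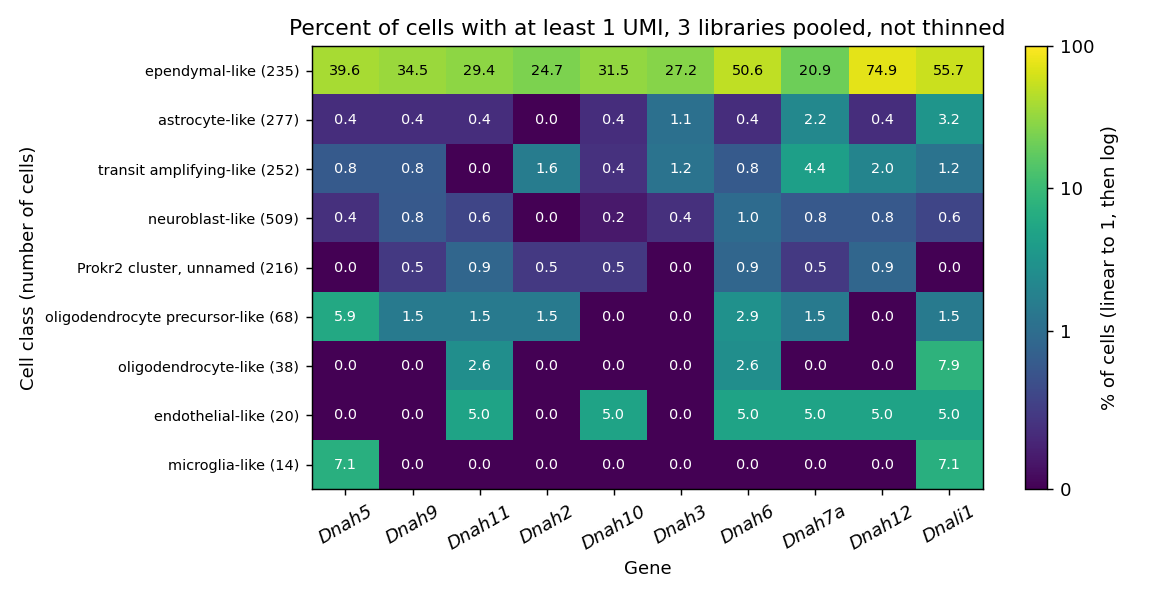
Percent of cells with at least 1 UMI of each chain (columns) in each cell class (rows, with the number of cells), 3 libraries pooled and not thinned; the colour scale is linear to 1% and logarithmic above. Ependymal-like cells range from 20.9% (Dnah7a) to 74.9% (Dnah12), and no other class exceeds 7.9%.

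Shares of cells with a UMI gave the same picture. Dnah12 was seen in 74.9% of ependymal-like cells (68.8% to 80.3%) and 0.93% of other cells, with median depths of 3620 and 2352.5 UMIs. At 1000 UMIs per cell these shares were 40.6% and 0.37%. For Dnah7a they were 20.9% and 1.72% unthinned and 7.37% and 0.52% thinned.

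Dnah7a was also out of proportion among the few heavy-chain UMIs of other cells. It gave 24 of 98 of them (24.5%, 16.4% to 34.2%) but 60 of 1205 (4.98%, 3.82% to 6.36%) in ependymal-like cells. Its share was higher in other cells of all 3 libraries (2 of 11, 6 of 26 and 16 of 61 UMIs), with intervals separated only in tdTomato-negative 2. Dnah12 went the other way, with 13.3% (7.26% to 21.6%) in other cells and 32.7% (30.1% to 35.4%) in ependymal-like cells. With Dnah7a left out of the total, outer-arm chains made up 29.3% of heavy-chain UMIs in ependymal-like cells and 37.8% (26.8% to 49.9%) of 74 UMIs in other cells. Transit amplifying-like cells held 11 Dnah7a UMIs of 30 heavy-chain UMIs, 4 in tdTomato-negative 1 and 7 in tdTomato-negative 2, at 6.38 CPM (3.19 to 11.4). Astrocyte-like cells held 6 of 15, at 9.06 CPM (3.32 to 19.7), and neuroblast-like cells 4 of 25, at 3.37 CPM (0.92 to 8.62). These classes were not separated by their intervals. In all other cells Dnah7b had 10 UMIs and Dnah7c 2, against 52 and 15 in ependymal-like cells, and how shared reads were divided among the 3 copies was not tested. Oligodendrocyte precursor-like cells held 4 Dnah5 UMIs of 10 heavy-chain UMIs, too few to set against the other classes.

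The class differences were fitted on sums per library and class with edgeR's quasi-likelihood test and the library as a block. All 10 members passed the count filter and were higher in ependymal-like cells in each of 5 comparisons at a Benjamini-Hochberg adjusted p under 0.05. They passed that filter through the ependymal-like sums, where they are high, so the direction of these calls was set beforehand and the count is not support. The background was high: of the 3652 genes tested, 18.5% were higher against astrocyte-like, 24.9% against neuroblast-like, 18.8% against oligodendrocyte-like, 19.8% against oligodendrocyte precursor-like and 24.4% against transit amplifying-like cells. The classes come from the same cells, so these calls describe the classes. Dnah12 had a log2 fold change of 7.95 ± 0.56 (SE) over astrocyte-like cells (edgeR adjusted p = 2.9e-43) and of 7.24 ± 0.43 over transit amplifying-like cells (edgeR adjusted p = 1.8e-60). Dnah7a had 2.53 ± 0.72 over astrocyte-like (edgeR adjusted p = 0.0021) and 3.08 ± 0.70 over transit amplifying-like cells (edgeR adjusted p = 4.9e-05). In DESeq2 only 7, 9, 7, 6 and 8 members were called against astrocyte-, neuroblast-, oligodendrocyte-, oligodendrocyte precursor- and transit amplifying-like cells, and Dnah10 was called in none. Without tdTomato-negative 2, 5 members passed the filter, of which 1 was called against oligodendrocyte-like, 3 against oligodendrocyte precursor-like and 5 against each other class. Without the tdTomato-positive library Dnah7a, Dnah10 and Dnah11 were no longer called against oligodendrocyte-like cells (edgeR adjusted p = 0.070, 0.081 and 0.082), and without tdTomato-negative 1 Dnah7a was no longer called against oligodendrocyte precursor-like cells (edgeR adjusted p = 0.067).

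Between the sort gates, over all kept cells, all 10 members were higher in the tdTomato-positive library than in the tdTomato-negative ones. A gene could pass the count filter through the lone tdTomato-positive library, where the members are high. The direction was therefore set beforehand, and the count of 10 is not support. Background was again large, with 22.9% of 10944 tested genes higher. Log2 fold changes ran from 2.82 ± 0.42 (SE) for Dnah3 to 4.31 ± 0.41 for Dnah11, and Dnah12 stood at 3.84 ± 0.31. In such sums fewer cells of a type and less RNA per cell cannot be told apart, and the ependymal-like share moved with the difference (70.2% against 4.69% and 4.10% of cells). The fit had 1 residual degree of freedom and took the lone tdTomato-positive library, which has no spread of its own, to vary like the others, so the calls describe these 3 libraries. DESeq2 called 9 of 10, with Dnah10 at a DESeq2 adjusted p of 0.20. The Dnah10 log2 value of 3.50 became 4.27 without tdTomato-negative 1 and 2.24 without tdTomato-negative 2, and the Dnah11 value of 4.31 became 3.69 without tdTomato-negative 2.

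Within ependymal-like cells the same comparison called no member. Of 4118 genes tested 0.291% were called in either direction, and 0 of 10 members had an unadjusted edgeR p under 0.05. DESeq2 also called 0. Log2 values ran from -0.84 ± 0.47 (SE) for Dnah3 (edgeR adjusted p = 0.999) to 0.87 ± 0.51 for Dnah11 (edgeR adjusted p = 0.999), and Dnah12 was at -0.02 ± 0.30. The standard errors of 0.30 to 0.52 leave room for changes of that size, so a small difference between ependymal-like cells of the gates was not detectable. Dnah10, at -0.28, went to 0.64 without tdTomato-negative 1 and to -1.21 without tdTomato-negative 2.

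**Figure D5:**
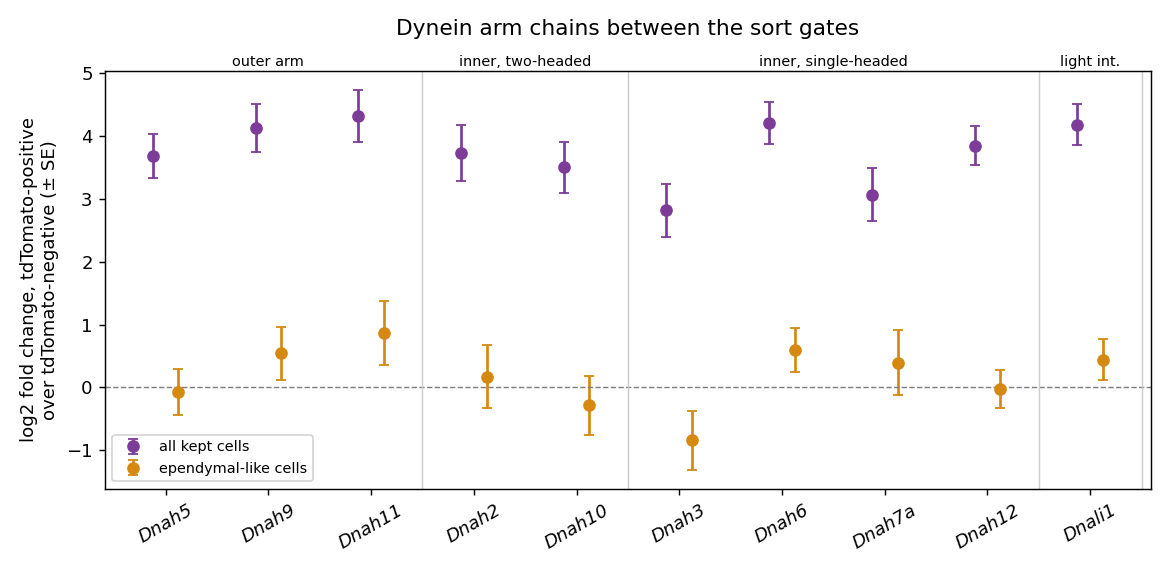
Log2 fold change of each chain, tdTomato-positive over tdTomato-negative libraries (linear axis of log2 values), from edgeR fits over all kept cells and over ependymal-like cells alone; bars are 1 SE. Values over all cells lie between 2.82 and 4.31, and those within ependymal-like cells between -0.84 and 0.87.

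Other dynein heavy chains and the machinery that builds the arms were counted in the same fits. Dnah1, a further single-headed inner-arm chain, had 56, 3 and 13 UMIs in ependymal-like cells of the 3 libraries and 10 UMIs in all other cells. Dnah8 and Dnah17, outer-arm chains of the sperm tail, had 2 and 0 UMIs in the 810210 UMIs of ependymal-like cells. The exact upper limit for Dnah17 there was 4.55 CPM. In all other cells Dnah8 had 1 UMI and Dnah17 had 5. Dnah14 had 15 UMIs (18.5 CPM) in ependymal-like cells and 6 UMIs (1.36 CPM) in all other cells. The shares called over all tested genes in the class comparisons are those given above (18.5% higher against astrocyte-like cells). Genes of these lists could also pass the count filter through the ependymal-like sums alone, so the counts below describe the classes and are not support. Of the listed genes in the matrices, 5 of 6 docking-complex, 11 of 15 arm assembly and 17 of 18 small-subunit genes were tested. For cytoplasmic dynein 8 of 9 were tested, and for multiciliation regulators 6 of 12. All 5 tested docking-complex genes, which anchor outer arms, were higher than in astrocyte-like cells, led by Armc4 (log2 7.56 ± 1.36) and Efcab1 (5.21 ± 0.53), and all 5 were higher in the other class comparisons. Of 11 tested arm assembly factors, which preassemble arms in the cytoplasm, 9 were higher and none lower than in astrocyte-like cells, led by Dyx1c1 (log2 7.60 ± 1.25) and Dnaaf3 (5.94 ± 0.85); 9 were also higher in each of the other class comparisons, and 1 was lower than in transit amplifying-like cells. Of 17 tested small subunits 12 were higher, led by Wdr63 (log2 9.0 ± 0.93) and Dnaic2 (8.33 ± 1.06), and 1 was lower: Dynlt3, a light chain also used by cytoplasmic dynein. Against the other classes 9 or 10 were higher, with 4 lower against neuroblast-like, 2 against oligodendrocyte precursor-like, 2 against transit amplifying-like and 0 against oligodendrocyte-like cells. Of 8 tested cytoplasmic dynein genes 4 were higher, led by Wdr60 (log2 2.22 ± 0.42) and Dync2li1 (2.16 ± 0.45), both subunits of the intraflagellar transport motor, and 4 did not pass. In each other class comparison 4 were higher, with 3 lower against neuroblast-like, 1 against oligodendrocyte-like, 1 against transit amplifying-like and 0 against oligodendrocyte precursor-like cells. Of 6 tested multiciliation regulators 5 were higher, led by Myb (log2 7.59 ± 1.25) and Foxj1 (4.54 ± 0.41), and E2f5 was lower. The other class comparisons also had 5 higher, with 1 lower against oligodendrocyte-like cells and 0 against the rest. The median log2 of all 3652 tested genes in this comparison was 0.03. It was 0.45 against oligodendrocyte-like cells, so values in that comparison are shifted upward. Between the gates within ependymal-like cells, none of the genes of these lists was called.

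Outside all lists, the genes most like the arm chains over the 16 sums per class and library were ranked by Pearson correlation of log2(CPM + 1), among 6641 genes. For the summed outer-arm chains they were 1700019G24Rik (0.91), Fundc1 (0.88), Ubl5 (0.86), Ppp1r32 (0.86) and Hsph1 (0.86). For the summed inner-arm heavy chains they were Znhit2 (0.92), Bphl (0.91), Tomm7 (0.91), Ascc1 (0.89) and Elof1 (0.89). The sums share libraries and 3 of them are ependymal-like, so these values are a description.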

How the data were processed

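Single cells were prepared with the 10x Genomics 3′ chemistry (v2), per the labels' protocols. The submitters' processing notes name Cell Ranger, STAR and Seurat 1.4.0.15 and the builds mm10 and GRCm38.p5, without their roles. The matrices deposited by the authors hold raw counts of UMIs per gene and barcode, 788344 to 3593633 per library. A barcode was kept if it had at least 300 genes and no more than 25% mitochondrial UMIs; doublets were not removed, and Scrublet marked 9, 2 and 3 cells.

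Cells were clustered with scanpy 1.11.5 (1000 variable genes, 20 components, 15 neighbours, resolution 1) on genes with an even last Ensembl digit plus marker genes outside the cilium lists. All 166 listed cilium genes, the members included, were left out. Clusters were named from 13 marker lists by the list with most members among 10 leading genes, with at least 3 markers 2-fold higher; the cluster led by Prokr2 stayed unnamed. The ependymal list includes Dynlrb2, a dynein light chain.

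Raw UMIs were added up for each library, and for each class of a library with at least 10 cells (16 sums), then tested with edgeR 4.0.16 (TMM, filterByExpr, quasi-likelihood, Benjamini-Hochberg over all genes tested, 0.05). For class comparisons the genes tested were those not used in clustering. Standard errors are the log2 fold change over the square root of F. DESeq2 1.42.0 was an alternative. Intervals are exact (Poisson or Clopper-Pearson, 95%) and cover counting error only. Every member is named in every comparison, with the 2 largest calls of each other list and the 5 most similar genes. Dnah7b, Dnah7c, Dnah8, Dnah14 and Dnah17 fall outside that rule and were named after their values were seen. The members and lists were chosen with earlier results of these data known.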

Additional observations from a re-analysis of the deposited data

How the results depend on the processing

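The counts of called members stayed within 1.5 times of the value given under RLE size factors, no filter on low counts, the stricter cell filter, all deposited barcodes, other clustering resolutions, clustering on odd-digit genes and removal of Scrublet calls, for the gates and for the class comparisons these settings could fit. Under resolution 2.0, odd-digit genes and Scrublet removal 8 members passed the filter in the class fits, and 8 were called. The stricter cell filter left too few sums for oligodendrocyte-like cells. The exception was DESeq2 against oligodendrocyte precursor-like cells, with 6 members called. Leaving out 1 library gave 5 to 10 members called against astrocyte-like, neuroblast-like and transit amplifying-like cells, 1 to 10 against oligodendrocyte-like and 3 to 10 against oligodendrocyte precursor-like cells. The low ends came without tdTomato-negative 2, where 5 members passed the filter, fewer than in the full fit. The outer-arm share of heavy-chain UMIs was 24.5% to 28.8% with 1 library left out (the low end leaves out tdTomato-positive cells), 29.1% under the stricter cell filter and 29.3% without Dnah7a. No paired analysis was possible because the gates share no replicate numbers beyond an assigned 1, and the tdTomato-positive label carries none. Without the replicate block for the library in the class fits, 10 members were called in all 5 comparisons. Thinning to 500 UMIs or not at all moved the shares of cells with a UMI out of their interval in 28 of 40 cases, by construction. Depth limits the tdTomato-negative 1 values most, since its 12 ependymal-like cells gave 85 member UMIs.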
